A study of Mus musculus with 24 samples.

Results

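The cytosolic ribosomal protein genes encode the protein part of the ribosome outside mitochondria. They were taken as the rows whose mouse symbol is Rpl or Rps with a number and at most a single closing letter, or Rplp0, Rplp1, Rplp2 or Rpsa, without the Rps6k kinases. The rule found 79 of the 17953 genes in both tables together. The table of mouse embryonic stem cells (mESC) held 79 of its 17501 genes and the table of neural progenitor cells (NPC) 78 of its 16024, since Rpl39l had a row only in mESC. A value of at least 1 in at least 2 libraries was asked of a gene before testing. All 79 members passed in mESC, among 13916 genes tested. In NPC 77 members passed among 13206, and the muscle paralogue Rpl3l did not. No member was at 0 in any library. Rps3a1, Fau and Rpl22l1, which are also ribosomal proteins or their relatives, lie outside the symbol rule.

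The libraries came from 6 Htt genotypes in each cell type, with 2 libraries a genotype. Htt encodes huntingtin. Besides wild type (WT) and a line without Htt (KO), 4 lines were heterozygous for a knock-in allele of Htt carrying 20 (Q20), 50 (Q50), 92 (Q92) or 111 (Q111) CAG repeats. For Q92 the titles say 92 and the growth protocol says 89 repeats. The mESC were kept with LIF over CF-1 feeder fibroblasts and gelatin, and the NPC were derived from such lines in N2B27 medium and then grown on laminin with FGF and EGF. Sequencing was of total RNA. Repeat length therefore differed between lines, of which there was 1 per length and cell type, and any other difference between lines cannot be told apart from the length. The series calls the 2 libraries of a condition biological samples without saying what they share, so the p-values measure only the spread between these libraries.

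A ribosome joins a small subunit, which reads the message and carries the Rps proteins, to a large subunit, which forms peptide bonds and carries the Rpl proteins. The acidic proteins Rplp0, Rplp1 and Rplp2 form a stalk on the large subunit that binds translation factors. Ribosomal protein messages share a terminal oligopyrimidine start, a C followed by an unbroken run of pyrimidines at the 5′ end, through which mTOR signalling and the protein Larp1 adjust their translation. Most of these proteins are made in matched amounts, since excess copies are degraded, and free Rpl5 and Rpl11 can bind Mdm2 and so stabilise p53.

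The start regions of the members that carry the later results show how variable this signature is in reference annotation. RefSeq promoters on GRCm38.p6 were found for 59 of the 79 members. An unbroken run of at least 8 C or T letters on the gene's strand, from 20 bases before to 50 after the start, stood in 45 of the 59 (76.3%) and in 25.4% of all 32851 promoters. In the window of 300 bases, on both strands, CCGGAAG stood in 40.7% of members and 8.86% of all promoters, GGGCGG in 57.6% and 35.7%, and TATAAA in 8.47% and 13.6%. The sequences below run 5′ to 3′ from 60 bases before the RefSeq start through its first 20 transcribed bases, and capitals mark unbroken runs of at least 7 C or T. Rpl38, Rpl26, Rpl36a and Rpl23 are shown because they had small p-values in NPC Q50, Rps27l and Rpl31 because they had the highest differences there, and Rpl39l because it varied most in mESC.
Rpl38 (chr11:114668520-114668599, plus strand): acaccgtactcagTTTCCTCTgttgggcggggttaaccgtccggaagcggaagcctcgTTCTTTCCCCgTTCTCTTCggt
Rpl26 (chr11:68901506-68901585, plus strand): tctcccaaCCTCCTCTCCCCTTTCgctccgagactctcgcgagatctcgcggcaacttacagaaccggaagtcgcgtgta
Rpl36a (chrX:134585594-134585673, plus strand): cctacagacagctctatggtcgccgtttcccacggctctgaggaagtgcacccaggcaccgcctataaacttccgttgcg
Rpl23 (chr11:97782420-97782499, minus strand): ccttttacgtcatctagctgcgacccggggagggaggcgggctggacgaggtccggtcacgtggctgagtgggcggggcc
Rps27l (chr9:66946026-66946105, plus strand): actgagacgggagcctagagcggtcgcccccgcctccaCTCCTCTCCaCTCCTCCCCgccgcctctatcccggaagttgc
Rpl31 (chr1:39367791-39367870, plus strand): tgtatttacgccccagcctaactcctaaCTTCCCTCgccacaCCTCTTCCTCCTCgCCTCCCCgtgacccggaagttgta
Rpl39l (chr16:10170168-10170247, plus strand): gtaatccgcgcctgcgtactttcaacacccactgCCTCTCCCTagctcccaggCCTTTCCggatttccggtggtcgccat
Rpl36a and Rpl23 held no such run in these 80 bases. A GENCODE start lay 56 bases from the RefSeq start for Rpl38 and 17 bases for Rpl26, so the letters around the start depend on the annotation.

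The values below are the deposited CPM, reads scaled per library. Between 58546211 and 81502284 reads stood behind an mESC library and between 48525333 and 118038952 behind an NPC library. Htt itself was checked first. In NPC it was 137 and 177 in WT and 100 and 94.9 in KO. The NPC groups did not overlap, but the log2 difference of -0.67 did not pass the limma test (adjusted p = 0.0673). In mESC it was 124 and 113 in WT, 139 in the library labelled KO 1 and 68.5 in the library labelled KO 2. The library labelled KO 1 was thus not below WT, and every mESC knockout value below rests on its label. Of the pluripotency markers, 13 of 14 had a row in mESC and summed to between 2247 and 4127 per library. Of the neural progenitor markers, 13 of 13 had a row in NPC and summed to between 4203 and 9487. Sox2, a defining marker of both cell types, had no row in either table.

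The members together took 7.59% to 9.39% of an mESC column and 4.21% to 7.35% of an NPC column. By genotype, the mESC share was 8.97% and 8.44% in WT, 8.78% and 8.12% in KO, 9.17% and 8.38% in Q20, 8.21% and 7.81% in Q50, 8.92% and 7.78% in Q92, and 9.39% and 7.59% in Q111. Replicate 1 had the larger share in all 6 genotypes. Both mESC Q50 libraries lay below both of WT and both of Q20, and the remaining pairs of genotypes overlapped. In NPC it was 5.87% and 5.92% in WT, 6.84% and 5.78% in KO, 6.82% and 6.67% in Q20, 4.21% and 4.72% in Q50, 6.78% and 7.35% in Q92, and 5.42% and 5.28% in Q111. Both Q50 libraries lay below all other NPC libraries, and Q92 overlapped Q20 and KO. Q50 had a mean share of 4.47% ± 0.36 (SD, n = 2), and Q20 one of 6.74% ± 0.112 (SD, n = 2). In a bulk sample, fewer cells of a type and less RNA per cell cannot be told apart.

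**Figure D1:**
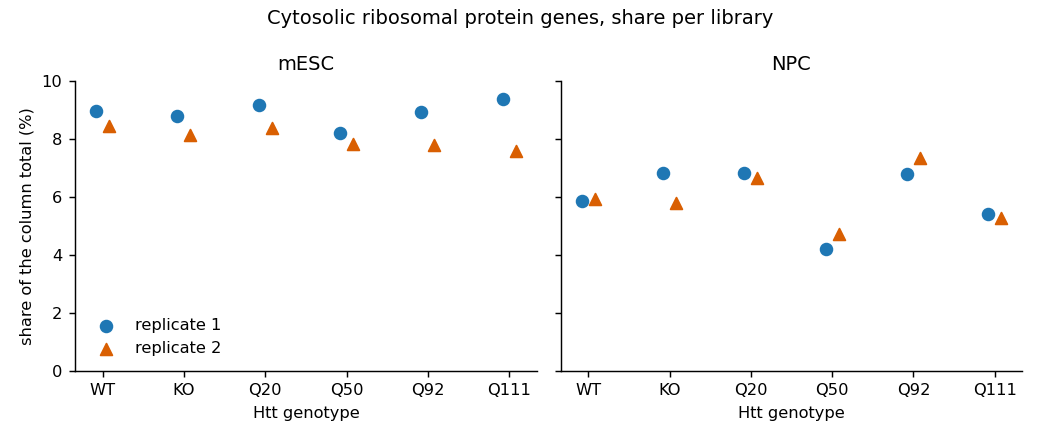
Share of the column total taken by the cytosolic ribosomal protein genes, in percent, by Htt genotype for mESC (left) and NPC (right); each point is 1 library, with circles for replicate 1 and triangles for replicate 2. The NPC Q50 libraries, at 4.21% and 4.72%, lie below the other 10 NPC libraries.

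Levels between genes were compared per kilobase of annotated exon. The exons of all transcripts of a gene were joined, so these levels also depend on which transcripts are annotated. In mESC the highest mean levels were those of Rpl4 (1858 per kb, 1672 to 2093 over the 12 libraries), Rpl8 (1685), Rpl23a (1498), Rpl19 (1487) and Rpl32 (1305). In NPC the same 5 large subunit genes led, with Rpl23a at 1161 per kb, Rpl4 at 1126 and Rpl32 at 1018. The lowest mESC levels were those of Rpl3l (1.14 per kb), the paralogue of Rpl3 found in muscle, and Rpl39l (69.9 per kb), the paralogue of Rpl39 best known from male germ cells. Rps15a, Rpl29 and Rpl34 followed at 107, 113 and 115 per kb. Many ribosomal protein genes have processed pseudogenes of nearly the same sequence, and reads shared with them may have been split or dropped, so levels between genes are uncertain. The annotated pseudogene rows took at most 0.00569% of a column.

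**Figure D2:**
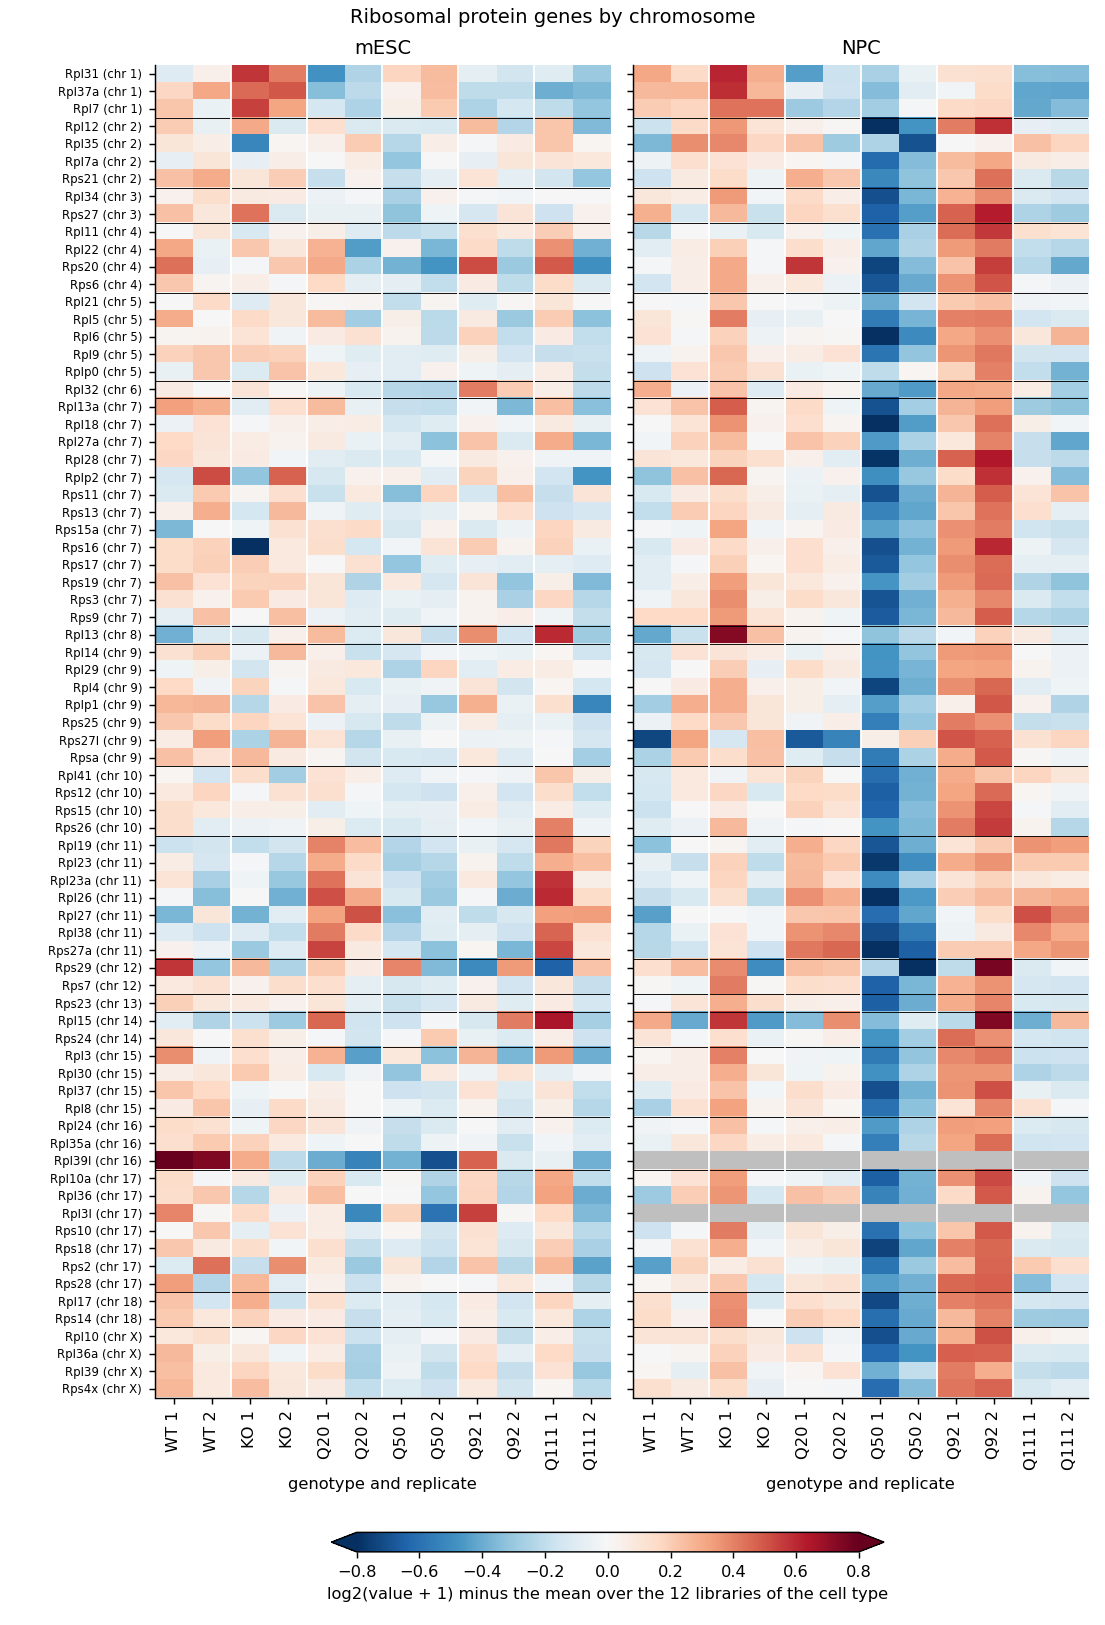
Each row is a reported ribosomal protein gene, ordered by chromosome, and each column a library; colour gives log2(value + 1) minus the gene's mean over the 12 libraries of that cell type, and grey marks genes not tested. On the values as deposited, the NPC Q50 columns are below the mean for most rows and the Q92 columns above it. The chromosome 11 rows are mostly above the mean in Q20 and Q111 of both cell types.

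The comparison of Q50 with Q20 in NPC held most of the members' changes. Of 77 members, 45 were lower in Q50 and none was higher, against 10.7% of all tested genes lower and 18.8% called in either direction, so the members were called lower at 58.4%. Calls are limma tests on log2(value + 1) at a Benjamini-Hochberg adjusted p under 0.05 over all genes tested. The members' median difference was -0.53 on this log2 scale, with a range of -1.20 to 0.72, and that of all genes was 0.00 to 2 decimals. The large subunit had 23 of 46 members lower (median -0.50) and the small subunit 22 of 31 (median -0.56). In 57 of 77 members both Q50 libraries lay below the other 10 NPC libraries, a position that 4.9% of all genes held.

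Among the small subunit genes, Rps27a (ENSMUSG00000020460, chromosome 11, 29545846 to 29548109, minus strand) showed the largest fall. It encodes ubiquitin fused to a small subunit protein. Its value was 656 and 671 in Q20 and 267 and 311 in Q50, against 418 and 438 in WT, 528 and 436 in KO, 563 and 563 in Q92, and 606 and 626 in Q111. Both Q50 libraries were the lowest and both Q20 libraries the highest of the 12. The difference was -1.20 (SE 0.125, adjusted p = 0.000323). Rps20 (chromosome 4), a protein of the small subunit head, was 1031 and 708 in Q20 and 416 and 543 in Q50. The groups did not overlap, but the Q20 libraries lay far apart, and the difference of -0.84 carried an SE of 0.223 (adjusted p = 0.0319). Rps6, the small subunit protein phosphorylated by S6 kinase, was 469 and 428 in Q20 and 274 and 334 in Q50 (-0.56, adjusted p = 0.0311). Rps3, which also acts as a DNA repair endonuclease, fell by 0.65 (adjusted p = 0.0191). Rps15a had the largest adjusted p among the called members, 0.0497, and Rps24 lay just outside at 0.0508, with differences of -0.42 and -0.41.

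Among the large subunit genes, the 6 smallest p-values belonged to Rpl38, Rpl26, Rpl23, Rpl19 and Rpl27 on chromosome 11 and to Rpl36a on X. Rpl38 (ENSMUSG00000057322, 114668524 to 114672331, plus strand), known for its part in translating Hox messages and in axial patterning, was 325 and 330 in Q20 and 154 and 171 in Q50. It was 216 and 244 in WT, 274 and 249 in KO, 246 and 266 in Q92, and 330 and 311 in Q111. Both Q50 libraries were below every other library, and the difference was -1.01 (SE 0.115, adjusted p = 0.00053). Rpl26 (68901583 to 68906989, plus strand), which binds p53 messages, was 720 and 686 in Q20 and 318 and 407 in Q50, a difference of -0.96 (adjusted p = 0.00318). Rpl23, a protein of the subunit interface, was 1321 and 1277 in Q20 and 648 and 785 in Q50 (-0.86, adjusted p = 0.00574). Rpl36a (ENSMUSG00000079435, chromosome X, 134585654 to 134588062, plus strand) was 344 and 314 in Q20, 205 and 226 in Q50, and 290 to 439 in the other libraries. Its Q50 libraries were again the lowest, with a difference of -0.61 (SE 0.104, adjusted p = 0.00473). Rpl6 on chromosome 5 was 1008 and 999 in Q20 and 564 and 697 in Q50, a fall of 0.68 (adjusted p = 0.0125).

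The stalk genes did not pass the test. Rplp0 was 1444 and 1463 in Q20 and 1303 and 1515 in Q50, so the groups overlapped (-0.05, adjusted p = 0.870). Rplp1 and Rplp2 had differences of -0.34 and -0.39, with adjusted p-values of 0.342 and 0.328. The Mdm2 binding proteins Rpl5 and Rpl11 had differences of -0.44 and -0.43 and adjusted p-values of 0.100 and 0.0677. The 3 chromosome 1 genes, Rpl31, Rpl7 and Rpl37a, stood at 0.15, 0.12 and -0.11 and were not called, while the other genes of chromosome 1 had a median difference of 0.54. Against the 12-library mean, those other genes had medians of 0.23 and 0.26 in Q50 and -0.25 and -0.26 in Q20. Rpl7, for example, was 1454 and 1513 in Q20 and 1464 and 1767 in Q50. Rps27l, a p53 target and paralogue of Rps27, had the highest difference of all members, 0.72 (SE 0.293, adjusted p = 0.133), with 74.2 and 81.6 in Q20 and 123 and 135 in Q50. Rps27 itself fell by 0.69 (adjusted p = 0.0336), from 533 and 517 to 302 and 349.

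**Figure D3:**
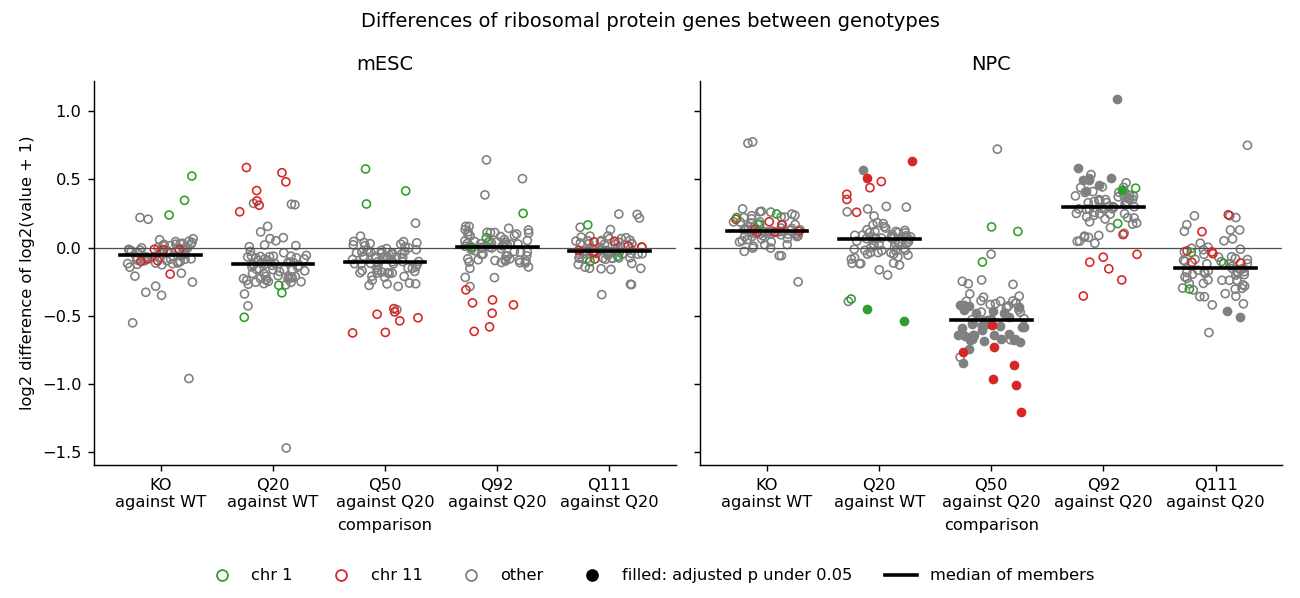
Log2 difference of each ribosomal protein gene from Q20, and of KO and Q20 from WT, in both cell types; each point is a gene, coloured by chromosome and filled where the adjusted p was under 0.05, and bars give the medians. In NPC Q50 the members lie between -1.20 and 0.72 with a median of -0.53; the NPC Q92 median of 0.30 falls to 0.00 with quantile normalization.

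The size of the NPC Q50 count rests on both libraries of each group. Leaving out Q20 replicate 1 left 4 members called, where 5.85% of all genes were lower, and leaving out Q20 replicate 2 left 7, where 6.28% were. Without Q50 replicate 1 there were 5 members, against 6.29% of all genes lower, and without Q50 replicate 2 there were 38, against 6.93%. With 3 of these 4 libraries left out in turn, the members' share was therefore near the background. The members' median ran from -0.66 to -0.40. Against WT in place of Q20, 14 members were lower and none higher, where 2.08% of all genes were lower and 6.62% called, and the median was -0.48. Rpl36a (-0.56, adjusted p = 0.0169), Rpl6 (-0.71), Rpl28 (-0.68), Rps27a (-0.57) and Rpl38 (-0.50) were among the 14. The Q50 libraries are in both of these comparisons. Without the chromosome 11 genes, 38 of 70 members were lower against Q20, with a median of -0.52.

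Other NPC features moved with Q50. The feeder fibroblast markers, with 10 of 10 in the table and none at 0, summed to 1060 and 1120 in Q50, 404 and 336 in Q20 and 127 to 368 in the remaining libraries, and 7 of the 10 were higher in Q50. Col1a1, a collagen chain, differed by 3.73. The neural progenitor markers summed to 9329 and 9487 in Q50 and to 4203 and 4391 in Q20. Singly they were mixed, since 2 of the 13 were called higher and 1 lower, and 7 lay above 0. Of the 10 neuron markers, 7 were lower and 1 higher, and their sums were 979 and 1060 in Q50 and 837 and 1004 in Q20. The pluripotency markers, of which 8 of 14 had a row and 4 of those were at 0 in at least 1 library, summed to 6.46 and 8.60 in Q50, 109 and 107 in Q20 and 9.56 to 34.8 elsewhere. Of the 6 pluripotency markers tested, 1 was higher and 2 lower in Q50, and 3 lay above 0. The part of these cell type markers in the members' fall was not tested. Q50 replicate 1 was also the shallowest library, at 48525333 reads, while Q50 replicate 2 had 84353617.

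Related gene groups were counted in the same fit. Of the 78 mitochondrial ribosomal protein genes, 3 were higher and 1 lower in NPC Q50, with a median of -0.01. Of 57 ribosome biogenesis genes 1 was lower (median -0.10), and of 15 genes of RNA polymerase I and its factors 1 was lower. Of 28 translation factors with terminal oligopyrimidine messages, 6 were lower and 1 higher (median -0.30), and Rack1, a scaffold on the small subunit encoded on chromosome 11, fell by 1.20. Among 9 relatives outside the symbol rule 2 were lower and none higher, and Rps3a1 fell by 0.47. Of 26 regulators of ribosomal protein synthesis 1 was higher and 2 lower, among which the kinase gene Mtor fell by 0.41. Other genes with exons no longer than the members' median of 1781 bases had a median difference of 0.01, and other genes with means of at least 308 one of 0.15. The difference between these groups and the members was not tested. The median was -0.54 for the 44 members with a C or T run at the start and -0.47 for the 13 without.

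For Q92 against Q20 in NPC the members' direction depended on the scaling. As deposited, 9 of 77 members were higher and none lower, against 9.88% of all genes higher and 25.8% called in either direction. This share of members is near the background of the 12-library fit. A fit of the Q92 and Q20 libraries alone called 44 members, 42 higher and 2 lower, where 23.7% of all genes were higher and 46.6% called. The median was 0.30 as deposited, 0.07 after rescaling columns to a common total and 0.00 after quantile normalization, with 1 member higher and 2 lower under the common total (26.0% of all genes called) and 1 higher and 3 lower under quantiles (24.6% called). The common total itself moved the median of all genes by -0.20 in Q92 and by -0.19 in Q111 against Q20, and by 0.15 in Q20 against WT. Relative to all genes, the members' median in Q92 was 0.24 as deposited, 0.21 with the common total and -0.08 with quantiles. As deposited, other genes with means of at least 308 had a median of 0.40 in Q92, with 77.6% above 0, against 92.2% of the members. Other genes with exons of at most 1781 bases had a median of 0.05, and the 23 within both bounds one of 0.41. The difference between these groups and the members was not tested.

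Rps27l had the largest called difference in Q92, from 74.2 and 81.6 in Q20 to 169 and 165 (1.09, SE 0.293, adjusted p = 0.0274). WT stood at 71.2 and 148, so its replicates spanned much of this range. Rpl28 was 464 and 424 in Q20 and 626 and 703 in Q92, and both Q92 libraries were the highest of the 12 (0.58, adjusted p = 0.0191). Rpl11 (0.51), the L1 stalk protein Rpl10a (0.51), Rpl10 (0.49), Rps26 (0.49), the X-linked Rps4x (0.46), Rpl36a (0.42) and Rpl7 (0.42) made up the 9. None of the 9 was called when Q20 replicate 1, Q20 replicate 2, Q92 replicate 1 or Q92 replicate 2 was left out. On the values as deposited, both Q92 libraries lay above the other 10 in 43 of 77 members, against 7.96% of all genes. These positions were not counted under the other scalings. As a share of the column total, the members overlapped between Q92 (6.78% and 7.35%) and Q20 (6.82% and 6.67%). Against WT 5 members were higher, among them Rpl36a, Rpl11, Rps15 and Rps26, where 3.42% of all genes were higher and 8.66% called. Fibroblast markers summed to 231 and 224 and astrocyte markers to 348 and 556 in Q92, against 2610 and 2306 for the latter in Q20, and their part was not tested.

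For Q111 against Q20 in NPC 2 members were called, both lower, where 16.1% of all genes were lower and 28.3% called. Rps14, lost in the 5q- syndrome, was 962 and 937 in Q20 and 688 and 686 in Q111 (-0.47, SE 0.145, adjusted p = 0.0447). Rpl27a was 682 and 661 in Q20 and 511 and 435 in Q111 (-0.51, adjusted p = 0.0476). Neither gene's groups overlapped. The count depends on the scaling. Under quantiles 41 members were lower (median -0.42), where 14.6% of all genes were, and under the common total 30 were lower (median -0.37), where 21.4% of all genes were. None was called when Q20 replicate 1, Q111 replicate 1 or Q111 replicate 2 was left out and 1 without Q20 replicate 2. Relative to all genes the median was -0.18 as deposited, -0.21 with the common total and -0.47 with quantiles. Of the 57 ribosome biogenesis genes, 15 were higher and none lower (median 0.78), and of the 78 mitochondrial ribosomal protein genes, 15 were higher and none lower (median 0.45). Cell type markers moved in this comparison too. Of 10 feeder fibroblast markers 9 were lower and 1 higher (median -2.26), with sums of 127 and 134 in Q111. Of 7 tested astrocyte markers 5 were lower (median -3.53), with sums of 287 and 276 in Q111, and of 10 neuron markers 5 were lower (median -0.83), with sums of 790 and 771. Their part was not tested.

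The CAG length trend over the 8 knock-in NPC libraries called 1 of 77 members, against 22.0% of all genes. Rps27l rose by 0.81 over the 91 repeats between Q20 and Q111 (SE 0.239, adjusted p = 0.0443). Its values were 74.2 and 81.6 in Q20, 123 and 135 in Q50, 169 and 165 in Q92, and 129 and 134 in Q111, so the order of the lines was not that of their lengths. It was not called without Q20 replicate 1, Q20 replicate 2, Q50 replicate 1, Q92 replicate 1, Q92 replicate 2 or Q111 replicate 2, nor with 89 in place of 92 repeats, quantile normalization or a common total. The members' median slope was 0.17 as deposited and turned to -0.06 with the common total and -0.12 with quantiles. In the same fit 38 of 57 ribosome biogenesis genes rose and none fell (median 0.88), and 8 of 15 genes of RNA polymerase I and its factors rose. In mESC the trend called none of the 79 members and 0.0% of all genes. No member had an unadjusted p under 0.05, against 358 of all 13916 genes, and edgeR called none either.

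The members also varied by chromosome. The 7 chromosome 11 genes are Rpl19, Rpl23, Rpl23a, Rpl26, Rpl27, Rpl38 and Rps27a. In mESC they held 10.4% and 10.2% of the members' total in Q20 and 10.4% and 10.5% in Q111, and 6.91% to 7.91% in the other 8 libraries. In NPC they held 9.52% and 9.30% in Q20, 10.2% and 10.3% in Q111 and 7.18% to 7.55% elsewhere. Q20 and Q111 did not overlap the other genotypes in either cell type. The other genes of chromosome 11 were also highest in Q20 and Q111, with medians against the 12-library mean of 0.20 and 0.27 in mESC Q20, 0.19 and 0.31 in mESC Q111 and -0.23 to -0.05 in the remaining mESC libraries. In NPC these medians were 0.14 and 0.14 in Q20, 0.34 and 0.30 in Q111 and -0.19 to -0.07 in the rest. Copy number was not measured, and its part was not tested.

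**Figure D4:**
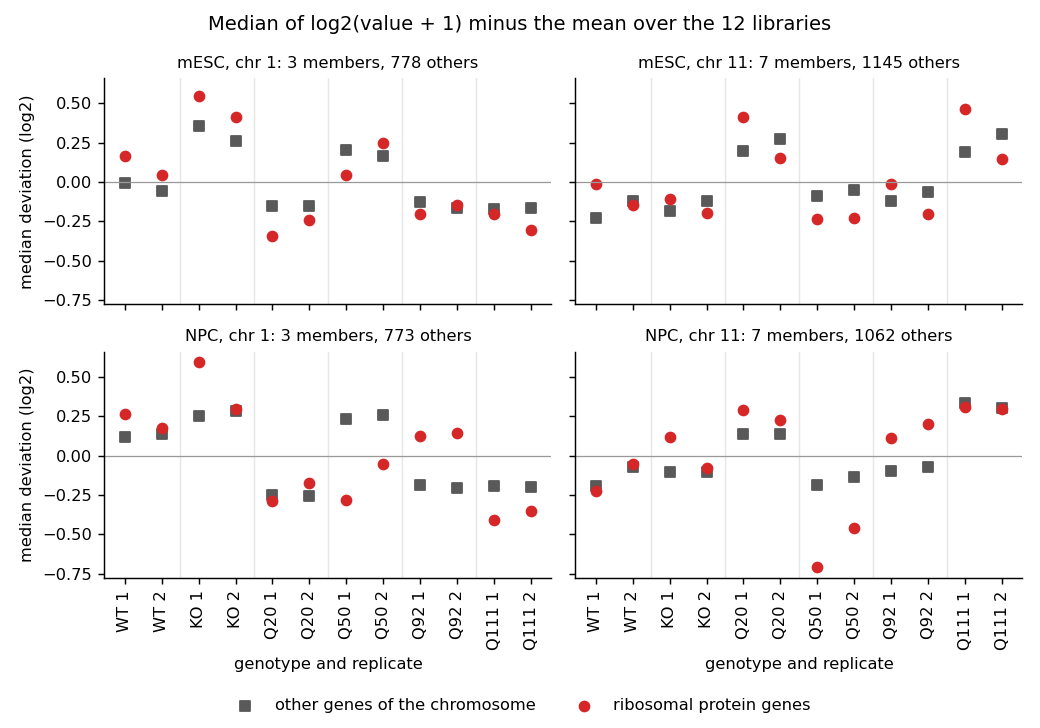
Median over genes of log2(value + 1) minus the gene's mean over the 12 libraries of the cell type, by library, for chromosomes 1 and 11 in mESC (top) and NPC (bottom); circles are ribosomal protein genes and squares the other genes of the chromosome. On chromosome 11 the squares are highest in Q20 and Q111 of both cell types, and the NPC Q50 circles (-0.71 and -0.46) lie below the squares (-0.19 and -0.14).

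The comparison of Q20 with WT in NPC called 5 of 77 members, 3 higher and 2 lower, against 14.5% of all genes. Rps27a (0.63, SE 0.125, adjusted p = 0.0111) and Rpl38 (0.51, adjusted p = 0.0205) on chromosome 11 were among the higher members. Rpl7 (-0.45, adjusted p = 0.0431) and Rpl31 (-0.54, adjusted p = 0.0469), both on chromosome 1, were lower. Rpl31, at the rim of the peptide exit tunnel, was 874 and 787 in WT and 519 and 626 in Q20, with no overlap. Other genes of chromosomes 11 and 1 had medians of 0.27 and -0.38 in this comparison. Quantile normalization called 10 members, all higher, where 8.25% of all genes were, so that Rpl7 and Rpl31 were no longer called. None was called without Q20 replicate 1 or without Q20 replicate 2, and none when the fit held the WT and Q20 libraries alone. The feeder fibroblast markers summed to 147 and 225 in WT, and 6 of 10 were higher and 1 lower in Q20 (median 1.31). Of the neuron markers 5 of 10 were higher and 1 lower (median 0.96), although their sum was larger in WT, at 1641 and 1273. Of 7 tested astrocyte markers 2 were higher, and of 6 tested pluripotency markers 2 were higher. Of the 13 neural progenitor markers 1 was higher and 1 lower, and 4 lay above 0 (median -0.56). They summed to 7678 and 6848 in WT and to 4203 and 4391 in Q20. The stem cell factor Pou5f1 differed by 6.03 and the neuronal Stmn2 by 6.52. The part of these markers was not tested.

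Against Q20, the chromosome 11 genes were all 7 lower in NPC Q50, with a median of -0.86, where other genes of the chromosome had -0.28. In mESC the same medians were -0.51 and -0.32. In NPC Q92 the 7 had a median of -0.11, with 1 above 0, while all 70 other members were above 0 as deposited; with quantile normalization 39 of all 77 were. For Q111, whose chromosome 11 share was like that of Q20, the medians were -0.03 in NPC and 0.00 in mESC. Against WT, NPC Q111 had Rpl27 (0.68), Rps27a (0.52) and Rpl38 (0.48) higher and Rpl37a (-0.68), Rpl31 (-0.58) and Rpl7 (-0.57) lower, 6 members where 16.6% of all genes were called. The first 3 lie on chromosome 11 and the others on chromosome 1. The comparisons with Q20 share its libraries, and those with WT share WT.

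No member was called for KO against WT in NPC by limma, where 1.42% of all genes were called, and edgeR called no member. An unadjusted p under 0.05 was reached by 2 of 77 members and by 1755 of all 13206 genes. Of these 2 members, Rpl13 on chromosome 8 had a difference of 0.77 (SE 0.178, adjusted p = 0.0954). Rpl13 was 483 and 567 in WT and 1065 and 752 in KO. The groups did not overlap, and KO replicate 1 was the highest of the 12 libraries. Over 13 alternative fits, some without 1 library, the Rpl13 difference ran from 0.52 to 1.02. For the fits without 1 library no share of all genes called was counted. Other genes of chromosome 8 had a median of 0.45, and all 77 members one of 0.12. As deposited 71 of 77 members were above 0, against 54.4% of all genes. The KO libraries differed in this. The members' median against the 12-library mean was 0.23 in KO replicate 1 and 0.00 in KO replicate 2, and -0.05 and 0.06 in WT. Between the KO libraries, 73 of 77 members were higher in replicate 1. Among other genes with exons of at most 1781 bases 57.3% were above 0 (median 0.05). Among those with means of at least 308 it was 65.3% (median 0.08), and among the 23 within both bounds 73.9% (median 0.38).

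In mESC no member was called in any of the 5 pairwise comparisons. The shares of all genes called were 0.0144% for KO against WT, 0.323% for Q20 against WT, 0.00719% for Q50 and for Q92 against Q20, and 0.0% for Q111 against Q20. In the same order, 2, 6, 8, 5 and 0 members had an unadjusted p under 0.05, against 553, 1716, 887, 747 and 374 of all 13916 genes. No member was called by edgeR. Leaving out the library labelled KO 1 left 0 called in each. The members' medians were -0.05, -0.12, -0.10, 0.00 and -0.03. Replicate numbers moved together across genotypes in mESC. With the replicate number as a block, 5 members were called in Q20 against WT, where the background was 10.6%, and 1 in Q50 against Q20, where it was 0.984%.

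Those 5 were Rpl39l, Rpl26, Rpl19, Rpl27 and Rpl37a. Rpl39l (ENSMUSG00000039209, chromosome 16, 10170226 to 10174911, plus strand) varied most of all mESC members, with a coefficient of variation of 48.4% over the 12 libraries. Its value was 129 and 90.4 in WT, 65.8 and 46.0 in KO, 40.3 and 36.6 in Q20, 40.9 and 32.4 in Q50, 74.4 and 49.1 in Q92, and 51.2 and 40.6 in Q111. Both WT libraries were the highest of the 12. Q20 differed from WT by -1.47 (SE 0.297, adjusted p = 0.0886 without and 0.00421 with the block). Rpl39 itself was 414 and 369 in WT and 388 and 291 in Q20. Rpl26, Rpl19 and Rpl27, all on chromosome 11, differed by 0.59, 0.48 and 0.55, with block adjusted p-values of 0.0151, 0.0305 and 0.0319. Rpl37a, on chromosome 1, differed by -0.51 (0.0170 with the block). Rpl19, which forms a bridge between the subunits, was 1332 and 1354 in WT, 1977 and 1778 in Q20 and 2012 and 1699 in Q111, and 1277 to 1439 elsewhere. With the block, Rpl26 was lower in Q50 than in Q20 (-0.62, adjusted p = 0.0415), at 828 and 734 against 1293 and 1113. Cell type markers also differed between mESC Q20 and WT, in the fit without the block. Of 13 tested pluripotency markers 1 was higher and 3 lay above 0 (median -0.29). Their sums were 2247 and 3124 in Q20 and 4127 and 3793 in WT. All 10 tested neural progenitor markers lay above 0 (median 0.93), and none was called. Of 9 tested feeder fibroblast markers 2 were higher and none lower. The part of these markers was not tested.

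**Figure D5:**
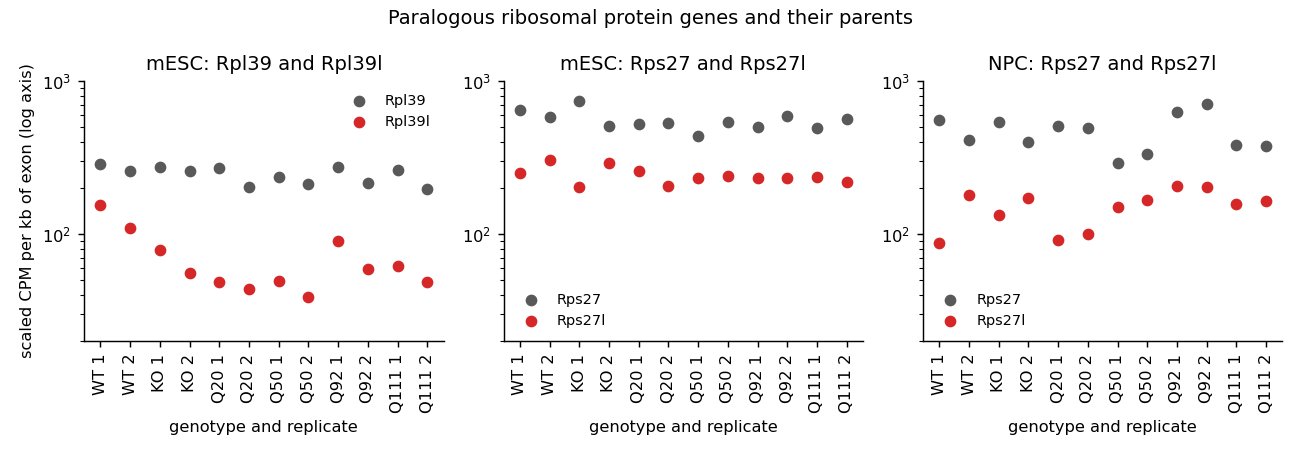
Deposited CPM per kilobase of exon, on a log axis, for Rpl39 and Rpl39l in mESC and for Rps27 and Rps27l in mESC and NPC; each point is 1 library. Both WT libraries are the highest for Rpl39l, and Rps27l in NPC is lowest in WT replicate 1 and in both Q20 libraries.

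Some mESC members had both libraries of a genotype beyond the other 10 without being called in the fit without the block. In WT this held above for 7 of 79 members against 2.46% of all genes, among them Rpl13a, Rpl28, Rpl37, Rpl39l, Rps15 and Rps21. In the libraries labelled KO it held above for Rpl31, Rpl37a and Rpl7, the 3 members on chromosome 1, against 2.26%. The other 778 genes of that chromosome had medians against the 12-library mean of 0.36 and 0.26 in the libraries labelled KO and of -0.01 and -0.06 in WT. Rpl31 was 754 and 835 in WT and 1208 in the library labelled KO 1 and 1079 in the library labelled KO 2 (0.52, adjusted p = 0.985). In Q50 it held below for 5 members against 0.776%, among them Rpl11, Rpl18, Rpl24 and Rpl32. Q50 had the lowest mean of the 6 genotypes in 46 of 79 members in mESC and in 71 of 77 in NPC. How many of all genes had their lowest mean in Q50 was not counted.

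Whether the knock-in effects differed between the cell types was tested within the tables, for 77 members among 12321 genes tested in both. The difference of Q50 against Q20 between NPC and mESC called no member, against 4.59% of all genes. Of the 77 members, 75 lay below 0 (median -0.42, against -0.03 for all genes). Unadjusted, 23 members and 1969 of all 12321 genes reached 0.05. Fitted with the block, 7 members were called lower and none higher, where 7.14% of all genes were lower and 11.3% called. Among the 7 were Rpl36a (-0.60, adjusted p = 0.0120), Rps15, Rps14, Rpl28, Rps24 and Rpl9. The difference of Q92 against Q20 called none, against 5.96%. As deposited its median was 0.31, against 0.05 for all genes. With quantile normalization the members' medians of Q92 against Q20 were 0.00 in NPC and -0.02 in mESC. Before adjustment, 9 members and 2249 of all 12321 genes reached 0.05 in the difference between cell types as deposited. When the block was fitted, Rps27l (1.08, adjusted p = 0.0452) and Rps15a (0.56, adjusted p = 0.0470) were called higher. In that fit 4.93% of all genes were higher and 14.6% called. The difference of CAG length trends called none, against 4.86%, and Rps27l had 0.82 (adjusted p = 0.108). In mESC Rps27l was 165 to 248 with overlapping genotypes.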

How the data were processed

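RNA from 24 libraries had been aligned by the authors; the submitters' processing notes name CASAVA 1.8, STAR and GRCm38.p6, and the counter, annotation, use of strand and gene filter are not given in the sources used here, so overlapping and antisense genes cannot be told apart. Per the file headers and values, the signal that the authors deposited, in 1 table per cell type named CPM, is reads per gene scaled per library, separately for each table. The columns sum to between 900342 and 1080734. All values were whole multiples of a step per column (100% at a tolerance of 0.01), which gave back reads. Values were used as log2(value + 1), which understates changes of low genes, and tested with limma 3.58.1 (variance trend, R 4.3.3, two-sided, Benjamini-Hochberg over all genes), with 6 group means over 12 libraries per cell type, for genes at 1 or more in 2 or more libraries. edgeR 4.0.16 on the recovered reads was an alternative. The design assumed CPM; the same test was kept. Trends were slopes over 8 knock-in libraries. IDs matched GENCODE M21 for 99.63% (mESC) and 99.82% (NPC) of genes. The repeat of a gene ID was dropped, 4 rows in mESC and 1 in NPC.

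Replicate numbers were taken to pair mESC libraries because the replicate differences correlated above 0.1 in 15 of 15 pairs of genotypes (0.250 to 0.547); the labels do not say so. In NPC 3 of 15 did (-0.0495 to 0.467), and no pairing was assumed. The 0.467 was that of WT and KO, whose comparison in NPC was thus also tested without pairing. The tests of Q50 and Q92 differences between cell types were added after seeing the data. The tests were checked on simulated counts with larger changes than most members showed, a single fixed spread and no replicate effect. That check does not cover the smaller differences of most members. Members, lists and the rule for named genes (called members with the largest or surest differences, levels per kb, paralogues) were chosen with earlier results of these data known. Genes named beyond it were chosen for their role or after their values were seen. Some genes that enter the counts are not reported here by name. Alternatives changed the pseudocount, filter, scaling, block, spread, reference, length and libraries.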

Additional observations from a re-analysis of the deposited data

How the results depend on the processing

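In NPC, the members called for Q50 against Q20 ranged from 4 to 38 when 1 library was left out, and were 14 against WT. For Q92 against Q20 they were 0 without any 1 of 4 libraries, 4 with quantile normalization, 3 with columns rescaled to a common total, 44 in a fit of both groups alone and 5 against WT. For Q111 they were 0 with no filter, 1 at a mean of at least 5, 41 with quantiles, 30 with a common total, 32 in both groups alone, 5 by edgeR, 6 against WT and 0 to 1 without a library. For Q20 against WT they were 2 with no filter, 3 at a mean of at least 5, 10 with quantiles, 0 in both groups alone, 3 by edgeR and 0 to 4 without a library. For KO against WT, leaving out a library gave 0 to 2. For the NPC trend the single call was lost, to 0, with quantiles, a common total, 89 repeats, 1 mean per line and edgeR, and it was 0 to 1 without a library. The difference of trends gave 1 with log2 of the length. Over all genes in NPC, edgeR called 3436 for Q111 against Q20, 1511 for Q20 against WT and 2731 for the trend. Where no share or number of all genes called is given for an alternative, as for the 32 in Q111, the count of members has no background beside it. The Q50 difference between cell types, whose alternatives were all chosen after seeing the data, gave 7 with quantiles, 4 with a common total and 0 to 1 without a library.

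With the replicate block as the pairing check, mESC gave 5 members for Q20 against WT and 1 for Q50 against Q20. In NPC, where numbers were not taken to pair libraries, it gave 3 for Q20 against WT, 0 for Q111 and 0 for the trend. The block gave 7 for the Q50 difference and 2 for the Q92 difference, and moved no other count by over 1.5 times.

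In mESC 3 single differences changed sign: Rpl19 in Q92 was 0.0614 against WT, Rps26 in Q111 ran from -0.00238 (without Q111 replicate 1) to 0.434 without a library, and Rplp1 in Q111 from -0.598 to 0.0545 (without Q111 replicate 2). None of the 3 had been called. The causes of these changes were not tested. Having 2 libraries a group limits the precision of every count.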
